A study of Mus musculus with 598 samples.

Results

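The 6 genes described here are WNT ligands, taken by name from the gene rows of a single-cell RNA-seq count table: Wnt3, Wnt3a, Wnt8a, Wnt2b, Wnt5a and Wnt5b, 6 of 40912 genes. They were measured in 598 mouse cells sorted for a GFP reporter of Mesp1, a transcription factor that marks early mesoderm of the gastrulating embryo and its cardiovascular descendants. The groups were wild type cells of embryonic stage E6.75 (E6.75 WT, 28.8% of the cells), 85 knockout cells of the same stage (E6.75 KO, 14.2%) and wild type cells of stage E7.25 (E7.25 WT, 57.02%). All 3 groups are Mesp1-GFP+, so each holds only cells in which the reporter was on. The labels name neither the gene knocked out, nor the reporter construct, nor the strain or number of embryos. Their extraction protocol speaks of adult bone marrow, which does not match the embryonic stages given for each cell. No embryo or litter is named, so each group is 1 sample of pooled cells: there is no test between groups, and intervals below are 95% intervals for counting error only.

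In GRCm38 with the GENCODE M21 annotation, Wnt3 lies on chromosome 11 from 103774150 to 103817957 on the plus strand. Wnt3a lies on the same chromosome from 59248033 to 59290752 on the minus strand. Wnt8a is on chromosome 18 from 34542313 to 34548273, and Wnt2b on chromosome 3 from 104945272 to 104961921. Wnt5a is on chromosome 14 from 28504750 to 28527448, and Wnt5b on chromosome 6 from 119432531 to 119544347. All 6 are protein coding, and counted reads lie over their exons. Wnt5a shares 358 exon bases with an antisense gene, Gm2670, and whether the counting used strand is not given in the sources used here, so those reads cannot be told apart.

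WNT proteins are secreted, lipid-modified signals. Canonical ligands bind Frizzled receptors together with LRP co-receptors and stabilise beta-catenin, which acts with TCF and LEF factors on target genes. Noncanonical ligands act through receptors such as Ror2 and through planar cell polarity proteins on cell movement. In the gastrula, Wnt3 is needed to form the primitive streak, Wnt3a to keep paraxial mesoderm forming, and Wnt5a for extension of the body axis. Here Wnt3, Wnt3a, Wnt8a and Wnt2b are counted as canonical and Wnt5a and Wnt5b as noncanonical, the usual division, although a ligand's action also depends on the receptors present.

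Wnt3 and Wnt5b were the 2 members at least 2-fold lower at the later stage in every setting tried, and the sequences just upstream of their annotated starts are shown for that reason. They come from the RefSeq table for GRCm38.p6, are read 5′ to 3′ on the gene's own strand and stop before the first annotated exon base. The Wnt3 stretch is chr11:103773925-103774149 on the plus strand. The Wnt5b stretches are chr6:119544348-119544597, before its outermost start, and chr6:119449387-119449636, before an inner start, both on the minus strand. Capitals mark matches, on either strand, to CTTTGA (the TCF/LEF core) or CANNTG (the E-box).
Wnt3: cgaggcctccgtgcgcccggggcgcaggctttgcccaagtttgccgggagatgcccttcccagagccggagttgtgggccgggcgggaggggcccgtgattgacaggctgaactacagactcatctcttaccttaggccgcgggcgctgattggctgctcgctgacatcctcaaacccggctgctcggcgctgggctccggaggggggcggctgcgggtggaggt
Wnt5b outermost start: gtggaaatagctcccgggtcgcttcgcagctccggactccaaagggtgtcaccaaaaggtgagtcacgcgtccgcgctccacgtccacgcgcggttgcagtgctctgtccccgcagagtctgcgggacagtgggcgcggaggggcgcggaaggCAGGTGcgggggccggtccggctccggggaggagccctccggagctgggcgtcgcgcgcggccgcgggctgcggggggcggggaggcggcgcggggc
Wnt5b inner start: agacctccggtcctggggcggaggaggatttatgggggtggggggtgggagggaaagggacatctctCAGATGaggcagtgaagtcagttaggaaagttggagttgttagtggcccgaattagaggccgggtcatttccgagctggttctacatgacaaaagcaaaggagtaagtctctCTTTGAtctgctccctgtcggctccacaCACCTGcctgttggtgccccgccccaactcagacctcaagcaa

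The Wnt3 stretch had no match to CTTTGA, to CANNTG or to AGGTGTGA, the T-box element, which was also searched. The outermost Wnt5b stretch had 1 E-box, and the inner one printed here had 2 E-boxes and 1 CTTTGA, 71 bases before its start. The stretch before another inner Wnt5b start, chr6:119467212-119467461, held none of these motifs and is not printed. Of 32851 promoter windows of 250 bases from 27025 genes, 13.8% held CTTTGA, 66.2% held CANNTG and 1.12% held AGGTGTGA. A match describes letters only and shows no binding. G and C made up 68.9% of the Wnt3 stretch, 75.2% of the outermost and 55.6% of the inner Wnt5b stretch, against a median of 52.4% over the windows.

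Median depth was 1088116.5 reads per cell in E6.75 WT, 940161 in E6.75 KO and 1377888 in E7.25 WT, and single cells held 101895 to 14159574 reads. Wild type libraries came in 2 sets, on which the labels are silent. In set 1 all of 8 indicator genes were read in every cell, in set 2 at most 4, and the sets coincide with runs of the numbers in the cell titles. Set 1 holds 83 E6.75 WT cells, all 85 E6.75 KO cells and E7.25 WT cells that make up 28.9% of the 598. Set 2 holds 89 E6.75 WT cells and the other E7.25 WT cells, 28.1% of the 598. The knockout was therefore compared with the wild type cells of set 1, and stage ratios of the 6 members are given within both sets. For other genes and gene lists, stage values are over both sets together unless a set is named. Set 2 had no cell with Y-linked reads, whereas set 1 had them in 53 of 83 E6.75 WT, 49 of 85 E6.75 KO and 95 E7.25 WT cells, the other 78 E7.25 WT cells of that set having none. Mesp1 itself stood at 406 counts-per-million (CPM) in the set 1 E6.75 WT cells, 7.40 in E6.75 KO and 531 in E7.25 WT. Markers of visceral endoderm, of extraembryonic ectoderm and of blood and bone marrow were scarce: in no group and set were more than 2 of 7, 2 of 6 and 2 of 6 of them above 1 CPM.

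At E6.75 the ligand RNA of these cells was mostly Wnt3 and Wnt5b, and at E7.25 Wnt5a and Wnt2b were higher while Wnt3 and Wnt5b were lower. In the knockout, Wnt5a stood far below wild type in every setting tried. Levels of one gene are compared in CPM, from reads summed over a group's cells, and ratios are log2 ratios of CPM + 1. In such sums, fewer cells that express a gene and less RNA in each cell cannot be told apart. A 2-fold difference, an absolute log2 ratio of 1, is used as a mark of size and not as a test.

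Wnt3, the canonical ligand of the primitive streak, was read in nearly every cell at E6.75. Per cell, its lowest, median and highest CPM were 0, 87.5 and 357 in E6.75 WT set 1, and 20.2, 135.5 and 387 in set 2. The knockout cells spanned 0, 79.1 and 345. At E7.25 the values were 0, 19.5 and 266.4 in set 1, and 0, 19.9 and 556 in set 2. Cells of all groups overlapped, but the E7.25 medians lay far below those of E6.75 in both sets. Summed over cells, Wnt3 was 129.4 CPM (interval 127.97 to 130.8) in E6.75 WT and 44.2 CPM (43.6 to 44.7) in E7.25 WT, a log2 ratio of -1.53. Within sets the ratio was -1.34 and -1.63. With each cell thinned to 100000 reads, a Wnt3 read was present in 95.9% of E6.75 WT and 59.2% of E7.25 WT cells, so at the later stage many cells had none at this depth. In the knockout Wnt3 was 92.6 CPM against 99.4 CPM in set 1 wild type, a log2 ratio of -0.10 that changed sign when 1 wild type cell with 16.9% of the reads was left out (0.067).

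Wnt3a, the canonical ligand of paraxial mesoderm, was rare and uneven. Its median per cell was 0 CPM in every group and set, and its highest cells reached 52.2 CPM in E6.75 WT set 1, 156.9 in set 2, 352 in the knockout, and 80.8 and 572 in the 2 sets at E7.25. Summed, it was 2.57 CPM in set 1 wild type and 7.46 CPM in knockout cells, a log2 ratio of 1.25. This rested on few cells: the 5 highest knockout cells held 73.9% of its reads and the 5 highest set 1 wild type cells 89.3%. Without the highest knockout cell the ratio was 0.80, and without the highest wild type cell, which held 48.97% of the reads, it was 1.85. Against wild type cells of both sets it was -0.027. Between stages Wnt3a was 7.62 and 14.04 CPM, a log2 ratio of 0.80, but the sets differed, with -0.12 in set 1 and 0.86 in set 2. Without the E6.75 WT cell that held 21.3% of the reads, the stage ratio was 1.09.

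Wnt8a, a canonical ligand of the early streak, was also read in a minority of cells. Its median was 0 CPM throughout, and its highest cell lay between 184.3 CPM in E6.75 WT set 2 and 269.2 CPM in E7.25 WT set 1. After thinning it was read in 22.4% (14.03 to 32.7) of knockout and 16.9% (9.54 to 26.7) of set 1 E6.75 WT cells. In set 2 of E6.75 WT the share was 26.97%. Over both sets it was 22.1% of E6.75 WT and 17.9% of E7.25 WT cells. The knockout sum of 18.9 CPM against 14.8 CPM in set 1 wild type gave a log2 ratio of 0.33, and 1 knockout cell held 60.9% of those reads. Without that cell the ratio was -0.84, and without the highest wild type cell it was 0.70. The stage ratio was -0.60 over all cells, -1.62 in set 1 and -0.15 in set 2.

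Wnt2b, a further canonical ligand, was higher at E7.25. It was 5.06 CPM (4.79 to 5.35) in E6.75 WT and 16.7 CPM (16.3 to 17.03) in E7.25 WT, a log2 ratio of 1.54, with 1.99 in set 1 and 1.34 in set 2. Its median per cell was 0 CPM in every group and set except E7.25 WT set 2, where it was 2.18 CPM. Highest cells stood at 78.3 and 60.3 CPM in the E6.75 WT sets, 51.2 CPM in the knockout, and 237.4 and 155.6 CPM in the E7.25 sets. In thinned set 1 cells the share with a read went from 9.64% to 17.9%, and in set 2 from 24.7% to 45.2%. In the knockout Wnt2b was 1.47 CPM against 3.41 CPM, a log2 ratio of -0.84. That value lay between -1.26 without the highest knockout cell and -0.50 without the highest wild type cell, and it was 0.14 in set 1 cells without Y-linked reads.

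Wnt5a, the best known noncanonical ligand, differed most between knockout and wild type. Per cell its lowest, median and highest CPM were 0, 4.45 and 195.1 in E6.75 WT set 1, and 0, 31.4 and 294.5 in set 2. In the knockout they were 0, 0 and 70.6. At E7.25 they were 0, 33.5 and 321.03 in set 1, and 0, 77.6 and 347 in set 2. Knockout cells overlapped with wild type at the low end, but only 7.06% of them exceeded 10 CPM, against 40.96% of set 1 wild type cells. Summed, Wnt5a was 1.98 CPM (1.73 to 2.25) in the knockout and 26.8 CPM (25.8 to 27.9) in set 1 wild type, a log2 ratio of -3.22. It stayed beyond 2-fold lower in 11 of 11 alternative settings, from -3.97 to -1.62, and with any 1 cell left out it lay between -3.55 and -3.02. Thinned cells with a Wnt5a read made up 9.41% (interval 4.15 to 17.7) of the knockout and 42.2% (31.4 to 53.5) of set 1 wild type.

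Wnt5a was also higher at the later stage, at 87.6 CPM (86.8 to 88.4) against 45.7 CPM (44.9 to 46.6). The log2 ratio was 0.92 over all cells, under 2-fold, and 1.33 in set 1 and 0.76 in set 2. The share of thinned cells with a Wnt5a read was 56.4% at E6.75 and 78.9% at E7.25.

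Wnt5b, the second noncanonical ligand, went the opposite way between stages. Its median cell had 46.9 and 47.1 CPM in the E6.75 WT sets and 1.68 and 3.31 CPM in the E7.25 WT sets, with highest cells of 474, 399, 387 and 268.1 CPM in that order. In the knockout the median cell had 30.8 CPM and the highest 301.5 CPM. The lowest cell was at 0 in each of these, so all groups overlapped. Summed, Wnt5b stood at 82.6 CPM (81.5 to 83.7) in E6.75 WT and 26.2 CPM (25.8 to 26.7) in E7.25 WT, a log2 ratio of -1.62, with -1.40 in set 1 and -1.74 in set 2. In the knockout it was 57.2 CPM against 80.9 CPM in set 1 wild type, a log2 ratio of -0.49. So the 2 noncanonical ligands went opposite ways between stages, and in the knockout both were lower, Wnt5b by less than 2-fold.

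**Figure D1:**
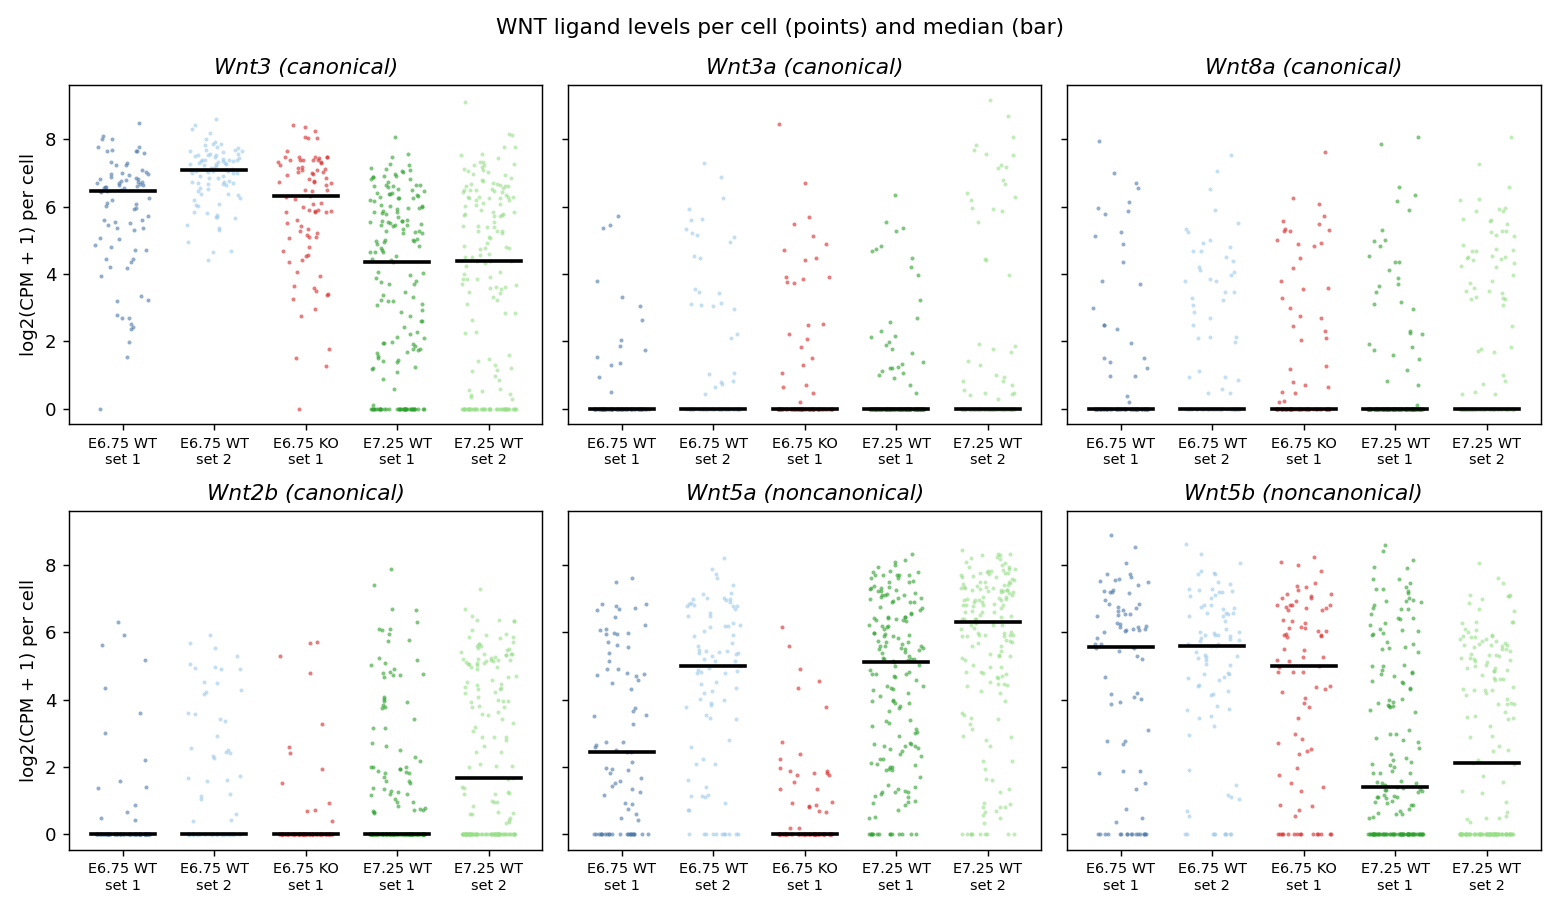
Level of each of the 6 ligands in every cell, as log2(CPM + 1), by group and library set; each point is 1 cell and the bar is the median. Wnt5a points of E6.75 KO cells gather at 0, and the Wnt3 and Wnt5b medians at E7.25 lie under those at E6.75 in both sets.

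Of the 6 ligands, 2 were at least 2-fold different in the knockout, Wnt5a lower and Wnt3a higher, where 12.4% of 13934 genes of at least 1 CPM were (4.8% higher and 7.64% lower). Between stages 3 of 6 were, Wnt2b higher and Wnt3 and Wnt5b lower, where 7.02% of 14217 genes were (4.93% higher and 2.09% lower). Within set 1 alone, 5 of 6 reached 2-fold between stages, where 12.6% of genes did. These 5 are all members except Wnt3a. Within set 2 alone, 3 of 6 did, Wnt3, Wnt5b and Wnt2b, where 8.72% of genes did. Both comparisons use E6.75 WT cells, so they are not independent of each other.

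**Figure D2:**
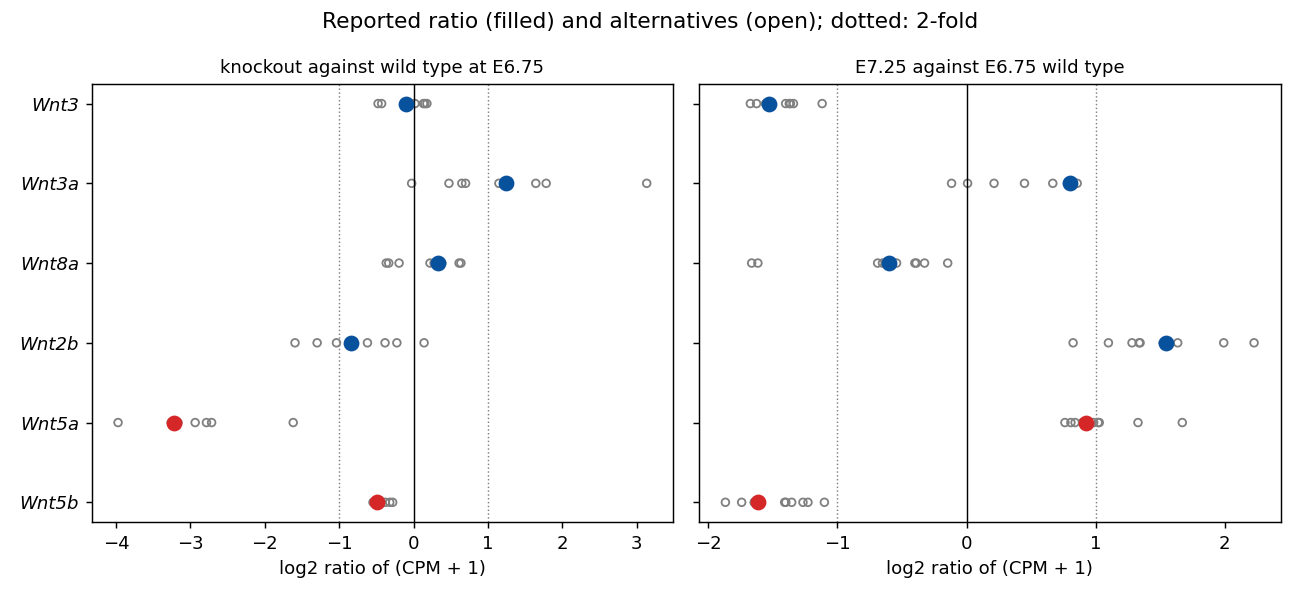
Log2 ratio of CPM + 1 for each ligand in the knockout comparison (left) and the stage comparison (right); the filled point is the reported value, open points are alternative settings and dotted lines mark 2-fold. All Wnt5a points on the left lie below -1, those of Wnt3a spread from -0.027 to 3.13, and on the right Wnt3 and Wnt5b lie below -1 throughout.

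Markers of cell state moved with both comparisons. In the knockout, 6 of 8 nascent mesoderm markers were at least 2-fold lower and none higher, and their summed CPM per cell had a median of 837 (range 105.2 to 3099) against 2541 (343 to 6183) in set 1 wild type. Mesp1 itself, with a log2 ratio of -5.60, is among these 6 and is part of the sums. Of 10 epiblast markers 3 were at least 2-fold higher in the knockout and none lower, with medians of 1783 (160 to 6143) and 1026 (298.998 to 4030). Of 8 primitive streak markers 2 were higher and none lower, with medians of 3703 (175.5 to 13765) and 2158 (673 to 5401). No marker of the nascent mesoderm, epiblast and primitive streak lists was at 0 in either group. Of 5 measured markers of definitive endoderm and axial mesoderm 2 were higher and none lower. Of the haemato-endothelial progenitor markers 6 of 7 measured were at least 2-fold lower in the knockout, with summed medians of 12.6 (0 to 845) against 92.9 (0 to 2703), Cdh5 at 0 in both groups and Sox7 at 0 in the knockout. Presomitic mesoderm markers were lower in 4 of 6, with 31.5 (0 to 571) against 175.4 (0 to 997.7), cardiac progenitor markers in 4 of 7, extraembryonic mesoderm markers in 4 of 6 and anterior paraxial mesoderm markers in 3 of 5, with none higher in these lists. Between stages, 5 of 8 primitive streak markers were at least 2-fold lower, with summed medians of 2958 (673 to 8126) at E6.75 and 802 (3.95 to 6333) at E7.25 and none at 0. Presomitic mesoderm markers were at least 2-fold higher in 7 of 8, with summed medians of 196.9 (0 to 997.7) at E6.75 and 719.97 (3.05 to 4309) at E7.25 and none at 0. Anterior paraxial mesoderm markers were higher in 5 of 7, cardiac progenitor markers in 4 of 8 and markers of definitive endoderm and axial mesoderm in 4 of 6, with none lower. The sets differed in size of shift, with median log2 ratios of 0.23 in set 1 and 1.84 in set 2 for anterior paraxial markers. For presomitic markers these medians were 1.41 and 2.59. The part of these shifts in the ligand values was not tested.

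The make-up of ligand RNA was compared between genes per length, as CPM per kb of exon. At E6.75 Wnt3 held 46.8% of the 6 ligands' total, Wnt5b 34.6%, Wnt8a 7.65%, Wnt5a 6.51%, Wnt3a 3.07% and Wnt2b 1.34%. At E7.25 the order was Wnt3 with 29.4%, Wnt5a with 22.9%, Wnt5b with 20.2%, Wnt3a with 10.4%, Wnt8a with 8.87% and Wnt2b with 8.14%. Wnt5a and Wnt5b thus held similar shares at E7.25, and their order turned between sets, with Wnt5a at 22.1% and Wnt5b at 28.4% in set 1 and 23.3% and 17.2% in set 2. Wnt3a's share came from set 2, at 13.6% against 2.08% in set 1. The knockout mix was 45.8% Wnt3, 32.8% Wnt5b, 16.4% Wnt8a, 4.11% Wnt3a, 0.531% Wnt2b and 0.384% Wnt5a. In set 1 wild type the mix was 42.3% Wnt3, 39.9% Wnt5b, 11.1% Wnt8a, 4.48% Wnt5a, 1.22% Wnt3a and 1.06% Wnt2b. The knockout shares include 1 cell with 60.9% of the knockout Wnt8a reads, and shares without it were not computed.

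Wnt5b went from 31.1 to 9.88 CPM per kb between stages and Wnt5a from 5.85 to 11.2, so the noncanonical RNA was made up differently and its summed level was lower at E7.25. Its share of the 6 ligands' length-scaled total was 41.1% at E6.75 and 43.2% at E7.25, with 44.4% and 50.5% in set 1, and 39.7% and 40.4% in set 2. Without length scaling the share was 45.5% at E6.75 and 57.99% at E7.25. In the knockout the length-scaled share was 33.2%, against 44.4% in set 1 wild type. Wnt5a supplied 4.48 percent of the set 1 wild type total, Wnt5b 39.9 percent. Wnt2, a canonical ligand outside the 6, is not in these shares. It stood at 11.5 CPM per kb at E6.75 and at 27.3 at E7.25, there above each of the 6. In set 1 wild type it was 18.6 CPM per kb and in the knockout 2.20. Wnt11, counted as noncanonical, is not in these shares either, at 2.61 CPM per kb at E6.75 and 0.394 at E7.25. Shares with Wnt2 or Wnt11 included were not computed.

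**Figure D3:**
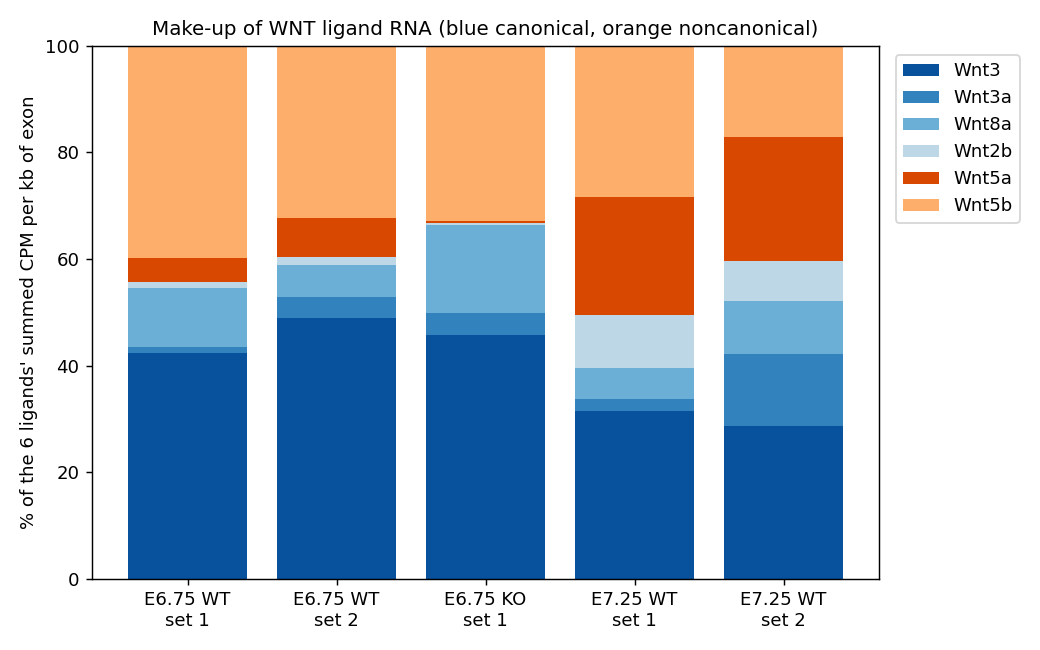
Share of each ligand in the summed CPM per kb of exon of all 6, by group and library set; blue shades are canonical and orange shades noncanonical ligands. The dark orange Wnt5a band is 0.384% of the total in E6.75 KO, and over 20% in both E7.25 WT sets.

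Cell by cell, most cells carried both kinds of ligand. After thinning to 100000 reads, 80.2% of E6.75 WT cells had a read of both a canonical and a noncanonical member, 27 (15.7%) only canonical, 4 (2.33%) only noncanonical and 3 (1.74%) neither. At E7.25, 68.3% of cells had both, 23 (6.74%) only canonical, 67 (19.6%) only noncanonical and 18 (5.28%) neither. Cells with noncanonical reads alone were thus more frequent at the later stage, and this held within sets: 4.82% and 26.01% in set 1, and 0 of 89 and 13.1% in set 2. A count of 0 of 89 allows a share of up to 3.37%, taken as 3 counts of the total, and its exact 95% interval reaches 4.06%. Without thinning the E7.25 share was 8.504%, so many of these cells had a canonical read at full depth. Wnt2, a canonical ligand, and Wnt11, counted as noncanonical, are outside these classes. After thinning, Wnt2 was read in 43.02% of E6.75 WT and 56.9% of E7.25 WT cells, and Wnt11 in 26.7% and 7.62%. Classes with Wnt2 or Wnt11 included were not computed.

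In the knockout, 59 of 85 cells (69.4%) had both kinds, 22 (25.9%, interval 16.985 to 36.5) only canonical and 1 (1.18%) only noncanonical. In set 1 wild type the canonical-only share was 19.3% (11.4 to 29.4). At 500000 reads per cell it was 14.8% of the knockout and 5.17% of set 1 wild type cells, and without thinning 15.3% and 8.43%. These intervals cover the counting of cells only and compare 2 pools of cells, not the conditions. Wnt5b, read in 69.4% of thinned knockout cells, kept most of them among those with a noncanonical read.

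**Figure D4:**
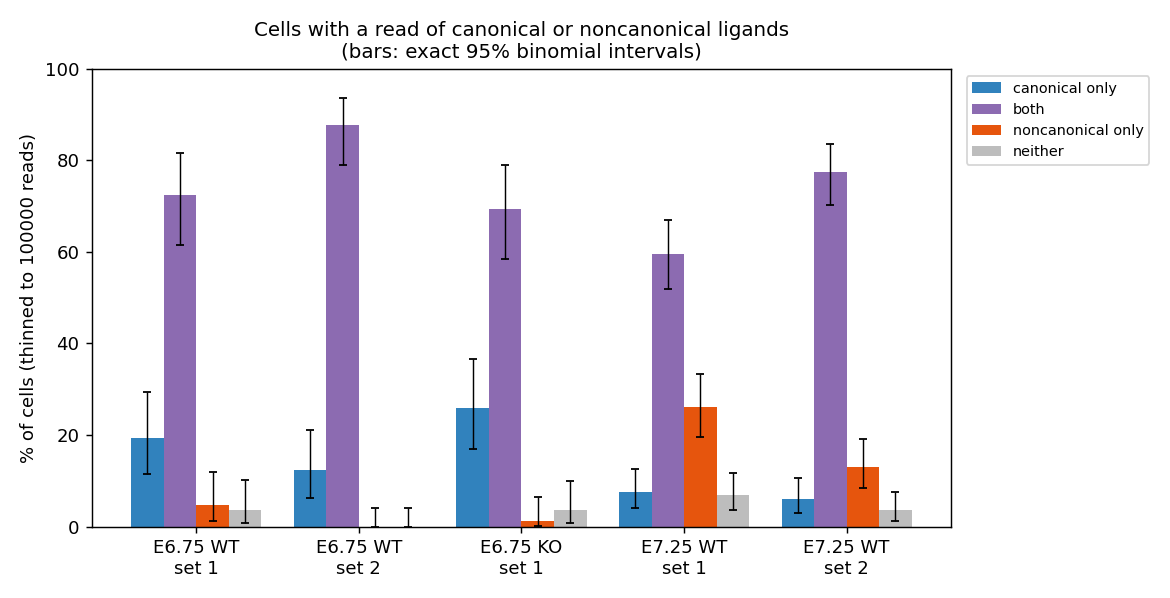
Share of cells with a read of canonical members only, of both kinds, of noncanonical members only, or of neither, after thinning each cell to 100000 reads; error bars are exact 95% binomial intervals. The orange noncanonical-only bars are 26.01% and 13.1% in the E7.25 WT sets and at most 4.82% in the E6.75 groups.

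The leading ligand of a cell is the member with the highest length-scaled level. Wnt2 and Wnt11 are in neither these shares nor the sums. The leading ligand was Wnt3 in 64.5% of E6.75 WT cells, Wnt5b in 25.6%, Wnt8a in 6.40% and Wnt5a in 2.33%. The sets differed, with Wnt3 leading in 50.6% of set 1 and 77.5% of set 2 cells and Wnt5b in 34.9% and 16.9%. At E7.25 it was Wnt3 in 33.1%, Wnt5a in 32.8% and Wnt5b in 17.6%, with Wnt8a, Wnt2b and Wnt3a leading in 5.87%, 4.99% and 4.69%. There Wnt3 led in 33.5% and 32.7% of the cells of the sets, Wnt5a in 30.6% and 35.1%, and Wnt5b in 21.97% and 13.1%. The noncanonical sum exceeded the canonical sum in 27.9% of E6.75 WT (21.3 to 35.2) and 50.4% of E7.25 WT cells (45.003 to 55.9). By set it did so in 36.1% (25.9 to 47.4) and 20.2% at E6.75, and in 53.8% and 47.02% at E7.25. In the knockout, all of set 1, it did so in 21.2% of cells (13.1 to 31.4). No knockout cell of 85 had Wnt5a as its leading ligand, against 3 of 83 in set 1 wild type. Canonical and noncanonical sums were only weakly related across cells, with Pearson's r on the log scale of 0.23 and 0.26 in the E6.75 WT sets, 0.15 in the knockout, and 0.28 and 0.37 in the E7.25 WT sets (83, 89 and 85 cells, and 28.9% and 28.1% of the 598). These cells share libraries and differ in depth.

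Pairs of ligands were met in the same cells to different degrees. At E7.25, Wnt5b was read in 54.5% of thinned set 1 cells with a Wnt3 read and 23.6% of those without, and in 56.4% and 26.9% of set 2 cells. Wnt5a showed no such split, with 74.3% and 72.2% in set 1 and 85.1% and 83.6% in set 2. So at the later stage Wnt5b was met more often in cells that kept Wnt3, and Wnt5a about as often in either. Wnt8a was read in 18 of the 25 set 2 cells with a Wnt3a read and 16.8% of those without, and in set 1 in 38.5% of the 13 cells with and 8.75% of those without. At E6.75 Wnt5a was read in 48.2% of set 1 cells with and 29.6% of those without a Wnt5b read, and in 77.5% and 38.9% in set 2. Wnt8a was read in 19.4% of set 2 cells with and 44.4% of those without a Wnt5a read, a split that set 1 did not show (17.1% and 16.7%).

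Cells of each group were clustered without any Wnt gene, with genes centred within library sets, and clusters were called by marker lists where these allowed it. The E7.25 cells gave 9 clusters, of which 3 could be named: presomitic mesoderm-like (44 cells), extraembryonic mesoderm-like (43) and epiblast-like (30). Their median depth went from 661868.5 reads per cell, in the cluster led by Scn4b, Tbx3 and Kdr, to 2102730 in that led by Cer1 and Alx1. Wnt3a at E7.25 was nearly all in the presomitic mesoderm-like cluster, which held 95.6% of its reads and 15.99% of all reads. Its level there was 83.998 CPM (82.1 to 85.9), against at most 2.97 CPM in each other cluster. In set 1 this cluster had 7 cells with 51.3% of that set's Wnt3a reads, and in set 2 it had 37 cells with 98.2%. The part of this uneven number of cells in the set difference in Wnt3a noted above was not tested. A cluster of 41 cells led by Kdr, Tbx3 and Mixl1 had 0 Wnt3a reads.

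Wnt8a at E7.25 was highest in the same presomitic mesoderm-like cluster, at 26.8 CPM and 56.7% of its reads. It was the highest there in both sets, at 34.8 and 26.2 CPM. At E6.75 its reads lay mainly in the epiblast-like cluster of 30 cells, at 29.6 CPM, and in a cluster of 18 cells led by Igfbp3 and Irgm1, at 25.2 CPM, but the sets differed in which was higher. In set 1 the epiblast-like cells had 51.4 CPM and the cells of the other cluster 3.75 CPM, and in set 2 they had 11.1 and 34.04 CPM. Wnt2b at E7.25 was 1.09 CPM in the extraembryonic mesoderm-like cluster, with 1.77 CPM in set 1 and 0.502 CPM in set 2. In the presomitic mesoderm-like cluster it was 28.5 CPM in the 37 set 2 cells and 0.641 CPM in the 7 set 1 cells. In the cluster led by Scn4b, Tbx3 and Kdr it was 47.4 CPM in 38 set 1 cells and 4.51 CPM in 14 set 2 cells, and its median cell was at 0, so that level came from few set 1 cells.

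Wnt3 at E7.25 was highest, in both sets, in the unnamed cluster led by Kdr, Tbx3 and Mixl1, of which 36 of 41 cells are from set 2, at 109.8 CPM in set 1 and 96.5 CPM in set 2. Wnt5a was 144.05 CPM there over both sets, but 89.1 CPM in its set 1 cells, where the cluster led by Scn4b had 91.99 CPM, and 150.4 CPM in its set 2 cells, where 4 cells of the cluster led by Ripply2 had 198.8 CPM. In the cluster led by Cer1 and Alx1, 19 cells all of set 2, Wnt3 was 2.32 CPM and Wnt5a 69.97 CPM. The lowest Wnt5a at E7.25 was in the epiblast-like cluster in both sets, at 19.2 and 6.07 CPM. At E6.75 the epiblast-like cluster had the lowest Wnt5a in set 2 only, 5.86 CPM, and stood at 23.9 CPM in set 1. The haemato-endothelial progenitor-like cluster of 12 cells had 78.4 CPM of Wnt5a in set 1 and 91.3 CPM in set 2. Wnt5b at E7.25 was 2.39 and 4.74 CPM in the sets of the cluster led by Sfrp1 and Fgf5. It was 57.997 and 48.5 CPM in those of the presomitic mesoderm-like cluster and 91.2 and 39.9 CPM in those of the cluster led by Kdr, Tbx3 and Mixl1.

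The knockout cells gave 3 clusters, none of which met the naming rule. One had 4 epiblast markers and another 3 markers of definitive endoderm and axial mesoderm at 2-fold the level of the other cells, but none of these was among its 10 leading genes. Wnt5a was 4.25, 1.91 and 0.994 CPM in them, each below the lowest of the 7 wild type clusters in set 1 cells, 8.96 CPM (7.07 to 11.2). That wild type value rested on 77 reads over 12 cells, with the median cell at 0 and the highest at 100.5 CPM. Of these cells 25% had a Wnt5a read after thinning (5.49 to 57.2), so few cells set the value. Summed Wnt5a was low in all 3 knockout clusters. The knockout clusters differed in depth: that of 30 cells had a median of 390539 reads per cell, those of 28 and 27 cells 1239520 and 1317837. They were not matched to wild type clusters, and the parts of depth and cell make-up in the difference were not tested. Wnt3 was 74.7 to 98.8 CPM and Wnt5b 41.4 to 69.9 CPM across the same clusters.

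**Figure D5:**
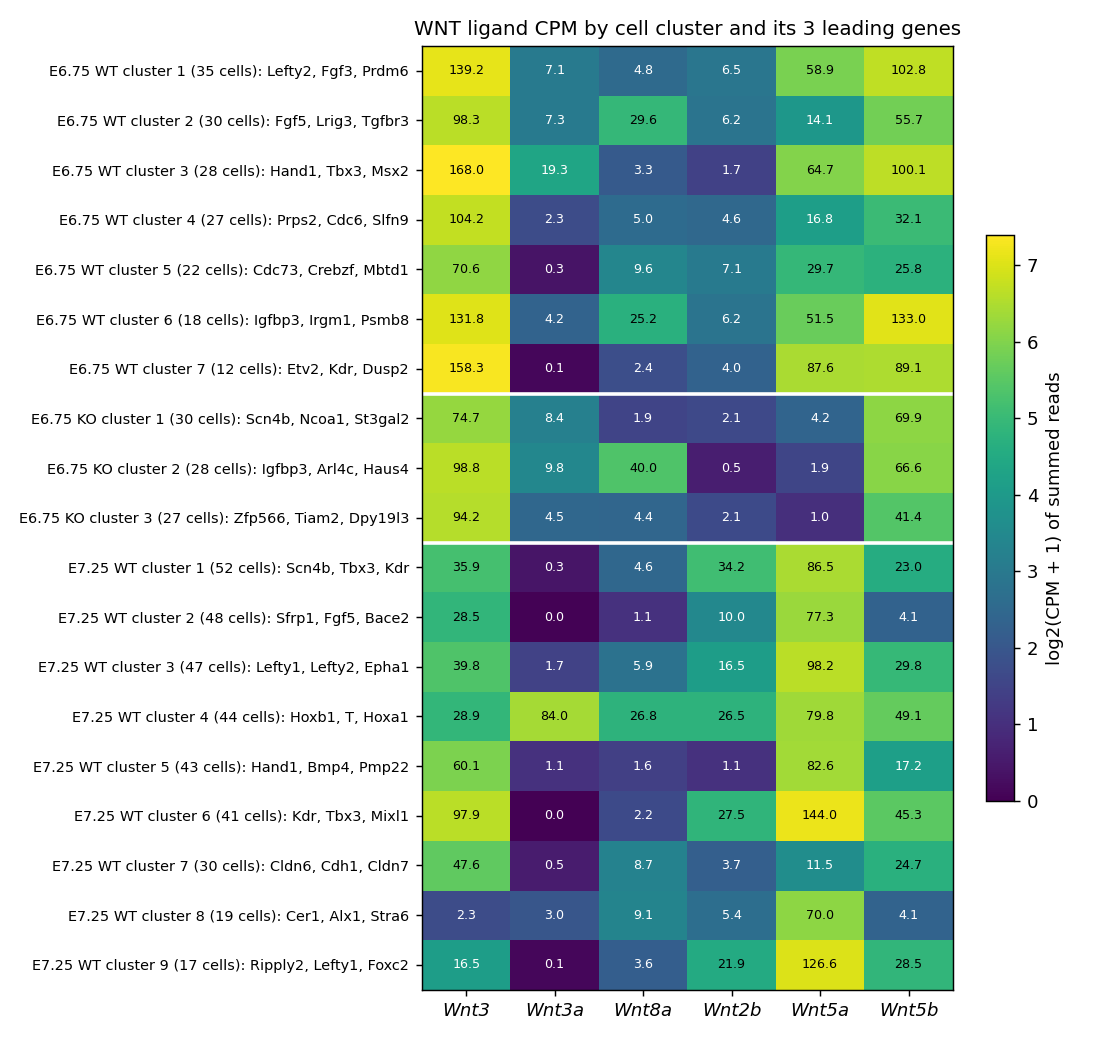
CPM of each ligand (columns, printed in the cells) in each cluster (rows, with the number of cells and 3 leading genes); colour is log2(CPM + 1), and values are to be compared within a column. Wnt3a stands at 83.998 CPM in E7.25 WT cluster 4, the presomitic mesoderm-like one, and Wnt5a is dark in all 3 E6.75 KO clusters.

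The genes whose levels ran most alike a ligand's across wild type cells were ranked by Pearson's r of log2(CPM + 1), averaged over the 2 sets. For Wnt5a at E6.75 they were Prdm6 (r = 0.47), Tbx3 (0.47), Phlda2 (0.41) and Wls (0.41), the last the carrier that takes WNT proteins to the cell surface. At E7.25 they were Fgf3 (0.41), Lef1 (0.36), Mesp1 (0.36) and Mycn (0.36). For Wnt5b at E7.25 they were Cdx1 (0.47), Fst (0.46), Mixl1 (0.46) and T (0.46), of which Mixl1 and T are primitive streak genes. Mixl1 (0.45) also led the list of Wnt3 at E7.25, followed by Msx1 (0.35), Evx1 (0.34) and Msx2 (0.32). These differed between sets 1 and 2: Mixl1 0.34 and 0.57, Msx1 0.20 and 0.50, Evx1 0.17 and 0.52, Msx2 0.10 and 0.54. At E6.75 the list of Wnt3 was Pfkl (0.41), Psmd3 (0.41), Snai1 (0.39) and Prmt5 (0.39). That of Wnt5b was Msx2 (0.42), Plekhf2 (0.38), Mogat2 (0.36) and Bmper (0.35). For Wnt8a the lists were Cxcl12 (0.49), Mapk4 (0.42), Fgf17 (0.41) and Apln (0.41) at E6.75, and Nmnat2 (0.39), Cdh1 (0.36), Prickle1 (0.36) and Apln (0.34) at E7.25. For Wnt2b at E7.25 they were Lefty2 (0.37), Lefty1 (0.33), Wnt2 (0.30) and Dll3 (0.30). The lists of Wnt3a and Wnt2b at E6.75 reached at most 0.33 and 0.30. Sets differed elsewhere too, as for Wnt5a with Tbx3 at E6.75, at 0.28 in set 1 and 0.65 in set 2. All these are moderate values over cells that share libraries, and are given as a description.

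Of the 13 other WNT ligands, 3 reached 1 CPM. Wnt2, a canonical ligand, was 41.8 CPM in set 1 wild type and 4.97 CPM in the knockout, a log2 ratio of -2.84. Between stages it went from 25.9 to 61.6 CPM, a ratio of 1.22. In set 1 cells without Y-linked reads the stage ratio turned, to -0.33. Wnt11, counted as noncanonical, was 10.8 CPM at E6.75 and 1.63 CPM at E7.25, a log2 ratio of -2.17, and its knockout ratio was 0.38, but -0.68 against wild type cells of both sets.

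For the gene lists that follow, the shares over all genes of at least 1 CPM serve as background. In the knockout 4.8% were at least 2-fold higher and 7.64% lower, and between stages 4.93% and 2.09%. Wls and Porcn, which carry and acylate WNT proteins, were within 2-fold in both comparisons. Of the Frizzled and LRP receptors, 1 of 10 measured was at least 2-fold higher and none lower in the knockout, with Fzd7 at -0.86 and Fzd2 at 0.73. Between stages 3 of 12 were higher and none lower: Fzd2 (1.26), Fzd3 (1.20) and Fzd1 (1.15, but 0.97 in set 2). Of 11 noncanonical receptor and planar polarity genes, Ror2, a receptor of Wnt5a, was 1.13 higher in the knockout on the log2 scale, from 8.37 to 19.5 CPM, and 1 was lower. Between stages Ror1 was 1.05 higher and Vangl1 fell by 1.15 on the log2 scale. Each was under 2-fold in 1 set, Ror1 at 0.94 in set 1 and Vangl1 at -0.93 in set 2. The median log2 ratio over all genes was -0.028 in the knockout and 0.032 between stages, beside 0.12 and 0.15 for the Frizzled and LRP list and 0.17 and 0.24 for the polarity list.

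Rspo3, a secreted amplifier of canonical signals, was 10.2 CPM in the knockout and 38.6 CPM in set 1 wild type (log2 ratio -1.83), and 2 of 3 measured genes of the R-spondin list were at least 2-fold lower. Between stages Lgr5, an R-spondin receptor, was higher (2.37) and Lgr4 lower (-1.23, but -0.95 in set 2), out of 5 measured. Of the secreted inhibitors, Dkk1 was higher in the knockout (1.02), the only 1 of 5 measured past 2-fold, and Cer1 (3.25) and Sfrp1 (3.19) were higher at E7.25, 2 of 7. None of 12 beta-catenin cascade genes was past 2-fold in the knockout, where Lef1 stood at -0.83. Tcf7l2 (1.48, but 0.79 in set 1) and Lef1 (1.20) were higher at E7.25. Of the beta-catenin target genes, 1 of 14 was higher and 1 lower in the knockout, Dkk1 and Tbx6 (-2.30). Between stages 4 of 15 were higher and 1 lower, among them Tbx6 (2.18, but 0.99 in set 1), Msgn1 (1.82), Lef1 (1.20) and, lower, Axin2 (-1.10). Over all genes 4.8% were higher and 7.64% lower in the knockout, and the target list lay near these shares. Between stages these shares were 4.93% and 2.09%, and more of the target genes past 2-fold were higher than lower.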

How the data were processed

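Per the labels, single cells were sorted into plates and sequenced as full-length cDNA. The deposited table holds raw read counts per gene and cell. Per the submitters' processing notes, the tools were GSNAP and HTSeq 0.5.3p3 and the build was mm10. Reads are not counted by molecule, so intervals cover counting error only. All 598 cells passed a filter of 100000 reads and 2000 genes. Of 40912 genes, 40254 were matched by identifier to GENCODE M21 symbols.

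The reads of all cells in a group were added up, scaled to CPM, and compared as log2 ratios after adding 1 CPM, over genes of at least 1 CPM in either group. Count intervals are exact Poisson, shares exact Clopper-Pearson. Each cell is its own deposited sample and no embryo is named, so no p-value was computed. Cells were thinned to 100000 reads by sampling without replacement. Length is the union of annotated exons. Library sets were told apart by 8 indicator genes, a cell being put in set 1 if at least 5 of them were read. The 95 genes read in at least 70 percentage points more of the set 1 cells, at both wild type stages, were left out of the clustering. A cell counts as having Y-linked reads above 3 CPM over 3 Y-linked genes.

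Clustering used 2000 variable genes, 20 components, 15 neighbours and leidenalg 0.10.2. Naming a cluster took 3 or more markers of a list at 2-fold the level of the other cells, at least 1 gene of the list among the 10 leading genes, and more of them there than of any other list. After the clusters were seen it was added that the leading gene may not mark another type, and leading genes were taken from values centred within sets rather than plain means. No doublet calling was run. Tools were Python 3.11.15, numpy 2.4.6, scipy 1.17.1, and R 4.3.3 with edgeR 4.0.16 and DESeq2 1.42.0 for scaling factors only. The calling step was tested on simulated data.

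The 6 members and all gene lists were chosen with earlier results of these data known. Named genes are the members, Mesp1, up to 3 genes of at least 5 CPM with the largest ratio per list and comparison, the 4 most alike genes per member and stage, and the leading genes of clusters. Gm2670 was named for its overlap. Alternatives were other added CPM, filters, scalings, depths, cell weights and library sets; leaving out each cell in turn was added after the data were seen.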

Additional observations from a re-analysis of the deposited data

Results flagged for a closer look

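Summed over cells, Wnt3 in the knockout went opposite ways in cells with and without Y-linked reads. Where set 1 cells had Y-linked reads, 49 knockout cells stood at 88.7 CPM against 79.8 CPM over 53 wild type cells, a log2 ratio of 0.15 (interval 0.08 to 0.22). Where they had none, 36 knockout cells stood at 99.9 CPM against 135.03 CPM over 30 wild type cells, a log2 ratio of -0.43 (-0.52 to -0.34). The median cells lay closer, at 79.1 CPM in the knockout and 76.2 in wild type with Y-linked reads, and 81.9 and 95.4 without. Of the set 1 wild type cells, 1 held 16.9% of their Wnt3 reads, and the split was not recomputed without it. The intervals cover counting error only, and the difference between the 2 kinds of cell was not tested.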

How the results depend on the processing

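No paired analysis was possible because the results come from no test and the numbers in the cell titles only name cells. The count of members past 2-fold in the knockout was 1 with 10 CPM added, 1 without the deepest 5% of cells, 3 at 500000 reads and 4000 genes (Wnt2b -1.04), and 1 to 3 with each cell left out in turn. Between stages it was 2 with 10 CPM added (Wnt2b 0.83), 4 with thinned cells, 4 without the deepest cells, 5 in set 1, 5 over set 1 cells having Y-linked reads, and 3 to 4 with each cell left out. The share of all measured genes past 2-fold in the knockout was 1.08% with 10 CPM added, 6.76% with no minimum level and 23.2% in cells without Y-linked reads, against 12.4%. Between stages it was 1.34% with 10 CPM added, 3.34% with no minimum, 12.6% in set 1, and 17.03% and 21.98% over its cells having and lacking Y-linked reads, against 7.02%. Among the member ratios recomputed, 1 changed sign from a value past 2-fold, Wnt3a in the knockout against both library sets (-0.027). Wnt2 between stages did so in set 1 cells without Y-linked reads (-0.33).

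Noncanonical-only cells made up 0% of E6.75 WT at 500000 reads, 0.581% without thinning and 0% in set 2. In the knockout they were 0% at 500000 reads and 0% without thinning. In E7.25 WT they were 9.83% at 500000 reads, 8.504% without thinning, 26.01% in set 1 and 13.1% in set 2. Canonical-only cells were 4.23% and 4.07% of E6.75 WT at 500000 reads and without thinning, 5.17% and 8.43% of its set 1 cells, 14.8% and 15.3% of the knockout, and 2.05% of E7.25 WT without thinning.

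The noncanonical share of ligand RNA in E6.75 WT was 43.7% with the longest transcript as length, 45.5% without length scaling, 40.1% with cells weighted equally, 40.4% without the deepest cells, 44.4% in set 1 and 39.7% in set 2. In the same order it was 44.995%, 57.99%, 44.97%, 44.2%, 50.5% and 40.4% in E7.25 WT. In the knockout it was 35.7% with the longest transcript, 34.8% with cells weighted equally and 34.3% without the deepest cells. The causes of these shifts were not tested beyond what each setting changes. No setting moved the median ratio over all genes by more than 0.1; it was -0.11 for the knockout against both sets, beside -0.028. Members read in few cells, Wnt3a, Wnt8a and Wnt2b, are limited by the number of cells that carry their reads.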
